A study of Mus musculus with 38 samples.

Results

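The 10 genes described here encode receptor chains and regulators that act below the receptor for granulocyte-macrophage colony-stimulating factor (GM-CSF) in alveolar macrophages. The receptor genes are Csf2ra and Csf2rb, through which macrophages sense GM-CSF, and Csf2rb2, a paralog of Csf2rb that serves IL-3. The others are the signal transducers Stat5a and Stat5b, the nuclear receptor gene Pparg, and the transcription factor genes Bhlhe40, Bhlhe41, Cebpa and Cebpb. All 10 were chosen by name as a receptor and regulator set and not by a threshold on their values. They are 10 of the 43346 genes in the deposited count table, each matched 1 Ensembl identifier by its symbol, and all 10 passed the filter on low counts, which left 14095 genes for testing.

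RNA was sequenced from macrophages sorted from the lungs of naive C57Bl/6 mice of 8 to 10 weeks, without a mutation or treatment in any group. Alveolar macrophages (AM) were taken as CD11c-positive, Siglec F-positive cells that lacked CD11b, CD103, Gr1 and lymphocyte markers. Interstitial macrophages were enriched for MerTK, gated as CD64-positive and CD11b-positive cells that lacked Siglec F, Ly6G, CD24, CD43 and lymphocyte markers, and then split by surface level: IM1 cells had little MHC class II and much CD206, IM2 cells had much of each, and IM3 cells had much MHC class II and little CD206. Each population has 3 libraries, named A, B and C, made from RNA of about 50000 cells by amplification of 2 ng, and the labels do not say whether a letter stands for an animal or a pool. Because AM and interstitial cells went through different sorts, a difference between the populations cannot be told apart from a difference between the sorts, and in sorted bulk RNA fewer cells of a type and less RNA per cell cannot be told apart.

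GM-CSF binds the alpha chain encoded by Csf2ra, which pairs with the common beta chain encoded by Csf2rb to signal. The beta chain carries JAK2, which activates STAT5, and in the fetal lung this route induces PPAR-gamma, on which the maturation and lipid handling of alveolar macrophages depend. Loss of GM-CSF, of the beta chain or of PPAR-gamma in mice leaves few or abnormal alveolar macrophages and lets surfactant build up. BHLHE40 and BHLHE41 are related E-box repressors that sustain self-renewal of alveolar macrophages in mice, and C/EBP-alpha and C/EBP-beta are basic leucine zipper factors of the myeloid lineage, of which C/EBP-beta is needed for alveolar macrophage numbers in mice.

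The libraries held between 11818981 and 15758326 reads assigned to genes. The alveolar and interstitial marker lists include genes of proteins used in the sorts, namely Siglecf, Itgax (CD11c) and Itgam (CD11b). These lists were also chosen with earlier results of these data known, so their sums describe the libraries and are no separate check of the sorts. A list of 10 alveolar markers summed to 48736 to 56539 CPM (CPM is the count of a gene relative to all assigned reads of the library) in AM libraries, against at most 312 CPM in IM1, 227 in IM2 and 550 in IM3. A list of 10 interstitial markers summed to 31.9 to 33.3 CPM in AM, against 27867 to 43658, 23567 to 31705 and 18179 to 20660 in IM1, IM2 and IM3. Within the alveolar list, Chil3 alone averaged 47499 CPM in AM. Fibroblast, endothelial and B cell genes were more abundant in interstitial libraries. The 5 fibroblast markers summed to at most 0.327 CPM in AM, against at least 31.98 and at most 116 CPM over the interstitial libraries, the 5 endothelial markers to at most 0.0693 CPM in AM, against 25.6 to 60.4 CPM, and the 5 B cell markers to at most 1.44 CPM in AM, against 33.4 to 66.2 CPM, with Pax5 at 0. Of the 6 epithelial markers, Epcam and Cdh1 were higher in AM. With them the list summed to 146 to 165 CPM in AM, against 8.41 to 58.2 CPM over the interstitial libraries. The other epithelial markers were higher in each interstitial population. Sftpc, Sftpb, Sftpa1 and Scgb1a1 averaged 0.322, 0, 0.0871 and 0.548 CPM in AM. In IM1 they averaged 11.9, 0.861, 6.40 and 6.42 CPM, in IM2 17.7, 2.83, 6.86 and 4.49, and in IM3 7.47, 0.857, 2.55 and 1.13. The 7 dendritic cell markers summed to 3.33 to 5.40 CPM in AM, against 102 to 124, 119 to 131 and 36.3 to 58.9, and the 5 eosinophil markers, of a cell that also uses this receptor family, summed to 0 in AM and at most 1.25 CPM elsewhere, with Epx, Prg3 and Il5ra at 0 in every library. Neutrophil, basophil and mast cell markers summed to at most 2.93 CPM in any library, and those of T and NK cells to at most 7.79 CPM. The part of these cells in the results below was not tested. Over all genes, 241 were called between IM1 and IM2, and 1904 without IM1 replicate B, so results that involve IM1 are given without it where a call changes.

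Over the 10 genes, the common pattern was a high level in AM. Calls below rest on an adjusted p under 0.05 from edgeR's quasi-likelihood test, with Benjamini-Hochberg adjustment over all genes tested. Against IM1, 8 of the 10 were higher in AM and 0 lower, where 25.7% of all genes tested were called higher in AM and 33.1% lower. Against IM2, 7 were higher and 0 lower, beside 26.2% and 34.3% of all genes, and against IM3 7 were higher and 0 lower, beside 25% and 32.4% of all genes. The median log2 fold change of the members, AM minus the interstitial population, was 1.83 against IM1, 1.32 against IM2 and 1.19 against IM3, where the medians over all genes were -0.12, -0.11 and -0.09. These comparisons share the AM libraries and so are not separate evidence. In 9 of the 10 genes the mean was highest in AM, and the exception was Cebpa, highest in IM3. The share of all genes with their highest mean in AM was not counted. Called higher in AM against all 3 interstitial populations were 6 of the 10, beside 18.7% of all genes tested. These were Csf2rb, Csf2rb2, Pparg, Bhlhe40, Bhlhe41 and Stat5a. The AM libraries of Stat5b overlapped those of every interstitial population, and the AM libraries of Cebpb overlapped those of IM1 and IM2.

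**Figure D1:**
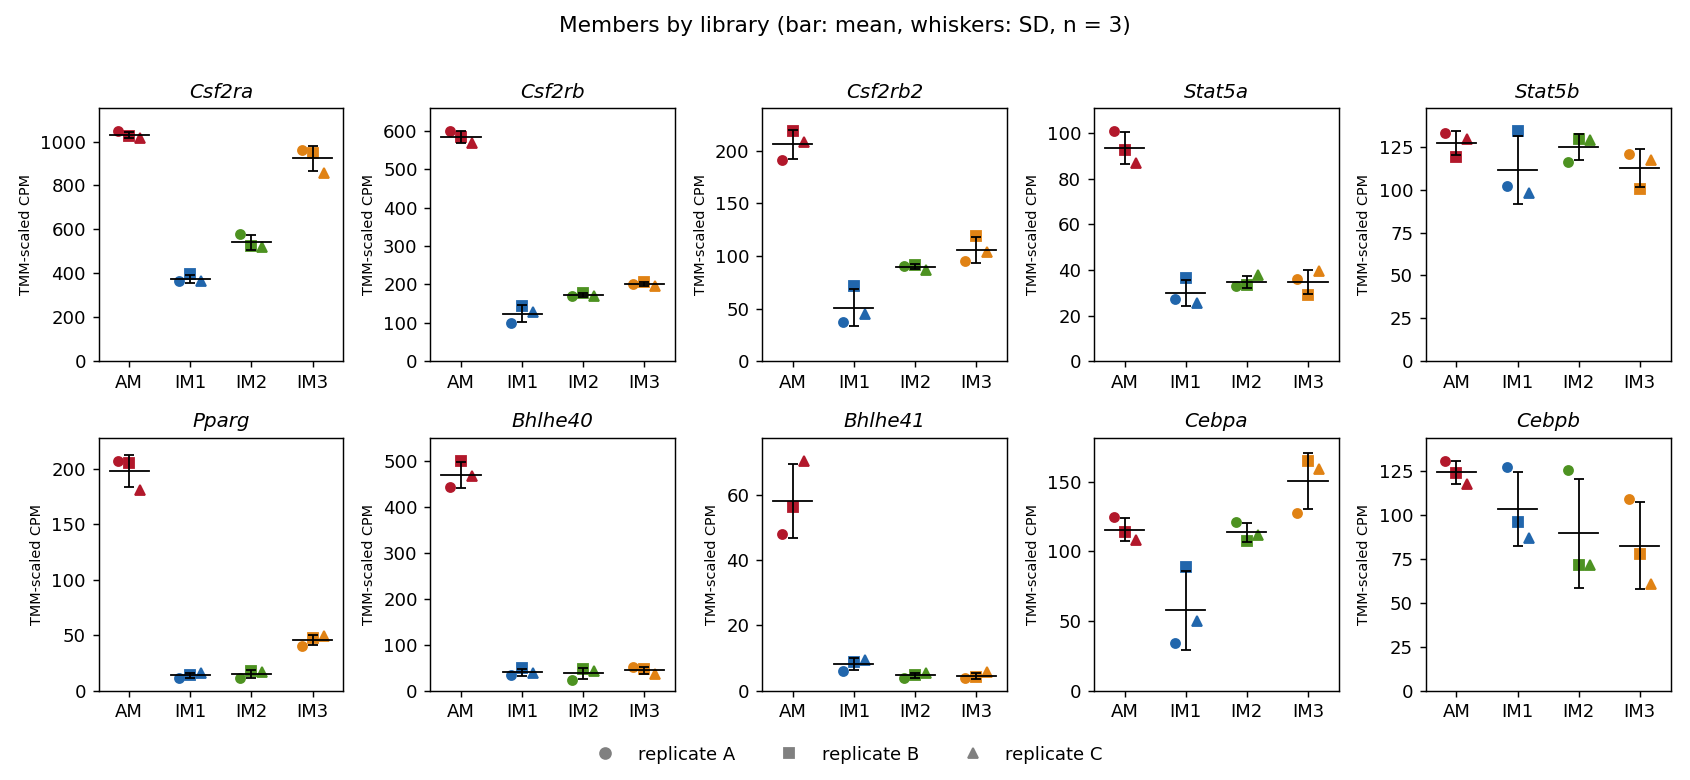
TMM-scaled CPM (vertical axes, starting at 0) of the 10 genes in each library of AM, IM1, IM2 and IM3, with points for replicates A, B and C, bars for the mean and whiskers for the SD (n = 3). Csf2ra, Csf2rb, Csf2rb2, Stat5a, Pparg, Bhlhe40 and Bhlhe41 have every AM point above every interstitial point. The share of all genes separated in this way was not counted. Csf2ra in IM3 (857 to 963 CPM) comes close to AM (1018 to 1047 CPM), and Stat5b is level.

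The receptor chain genes were all high in AM, and the alpha and beta chains were arranged differently among the interstitial populations. Csf2ra (ENSMUSG00000059326, GRCm38 chr19:61223957-61228429, minus strand, protein coding) encodes the ligand-binding alpha chain. Levels below are CPM scaled by TMM factors, per library in the order A, B and C. Csf2ra reached 1047, 1024 and 1018 CPM in AM, 365, 396 and 365 in IM1, 579, 523 and 521 in IM2, and 963, 948 and 857 in IM3. The populations form a ladder with IM1 lowest, IM2 above it and IM3 just under AM, and no library of a population overlaps the next. The log2 fold change was 1.46 ± 0.11 (SE) for AM against IM1, 0.93 ± 0.11 for AM against IM2 and 0.16 ± 0.11 for AM against IM3, with edgeR adjusted p of 1.24e-08, 2.07e-06 and 0.223, so the last step was not called. The interstitial steps were called: IM1 minus IM2 was -0.53 ± 0.11 (edgeR adjusted p = 0.0191), IM1 minus IM3 -1.30 ± 0.11 (3.77e-07) and IM2 minus IM3 -0.77 ± 0.11 (0.000141). The call between IM1 and IM2 was lost without IM1 replicate C (adjusted p = 0.0808), IM2 replicate A (0.0609) or IM2 replicate B (0.0603), and in a fit of those populations alone (0.228).

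Csf2rb (ENSMUSG00000071713, chr15:78325752-78353847, plus strand) encodes the beta chain shared by the receptors for GM-CSF, IL-3 and IL-5. It reached 599, 583 and 569 CPM in AM, 99.2, 143 and 129 in IM1, 170, 178 and 170 in IM2, and 201, 208 and 196 in IM3. Every AM library was far above every interstitial library, and the interstitial populations again stood in the order IM1, IM2, IM3 without overlap, but close together. The log2 fold change was 2.24 ± 0.13 against IM1, 1.76 ± 0.13 against IM2 and 1.54 ± 0.13 against IM3 (edgeR adjusted p = 7.22e-10, 1.09e-08 and 5.56e-08). Among interstitial populations only IM1 minus IM3 was called, at -0.70 ± 0.13 (edgeR adjusted p = 0.000791). IM1 minus IM2 was -0.48 ± 0.13 with an adjusted p of 0.0715, which was 0.046 with the replicate letter as a block, 0.0628 with that block on the interstitial libraries alone, and 0.0081 without IM1 replicate B.

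Csf2rb2 (ENSMUSG00000071714, chr15:78282507-78305721, minus strand) is the mouse paralog that serves IL-3 and lies 20030 bases from Csf2rb on the opposite strand. It had 192, 219 and 209 CPM in AM, 37.2, 71.0 and 44.4 in IM1, 90.8, 91.3 and 86.8 in IM2, and 95.1, 119 and 104 in IM3. AM was again highest with no overlap and IM1 lowest, while IM3 lay just above IM2 (IM2 minus IM3 -0.24 ± 0.18, edgeR adjusted p = 0.532). Relative to the interstitial populations, Csf2rb2 was higher in AM by 2.02 ± 0.19, 1.20 ± 0.19 and 0.96 ± 0.18 on the log2 scale against IM1, IM2 and IM3 (edgeR adjusted p = 1.92e-07, 4.09e-05 and 0.00034). IM1 minus IM3 was -1.05 ± 0.19 (0.000627), and IM1 minus IM2 was -0.81 ± 0.19 with an edgeR adjusted p of 0.0359. The call between IM1 and IM2 was lost in 11 of the 12 fits that left out a library, with adjusted p up to 0.156, while the fit without IM1 replicate B gave -1.14 and 0.000163. Csf2rb and Csf2rb2 share 18.4% and 19% of their 50-base transcript windows letter for letter, and reads that map to several places were not counted, so both levels may be undercounted by an amount that was not measured.

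Because the genes differ in length, levels of different chains were compared per kilobase of counted exons. On that scale Csf2ra had 557 ± 8.22 CPM per kb in AM (SD, n = 3), Csf2rb 123 ± 3.15 and Csf2rb2 44.7 ± 2.95. The ratio of Csf2ra to Csf2rb within a library was 4.54 ± 0.06 in AM, 7.97 ± 1.30 in IM1, 8.07 ± 0.63 in IM2 and 11.8 ± 0.52 in IM3. The 3 AM ratios, 4.50, 4.52 and 4.61, lay below all 9 interstitial ratios, which ran from 7.14 to 12.3, and the IM3 ratios lay above all others. IM3 macrophages had Csf2ra at 89.6% of the AM mean and Csf2rb at 34.5% of it. For Csf2rb over Csf2rb2 the ratio was 2.75 ± 0.24 in AM, 2.44 ± 0.44 in IM1, 1.87 ± 0.05 in IM2 and 1.86 ± 0.18 in IM3.

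**Figure D2:**
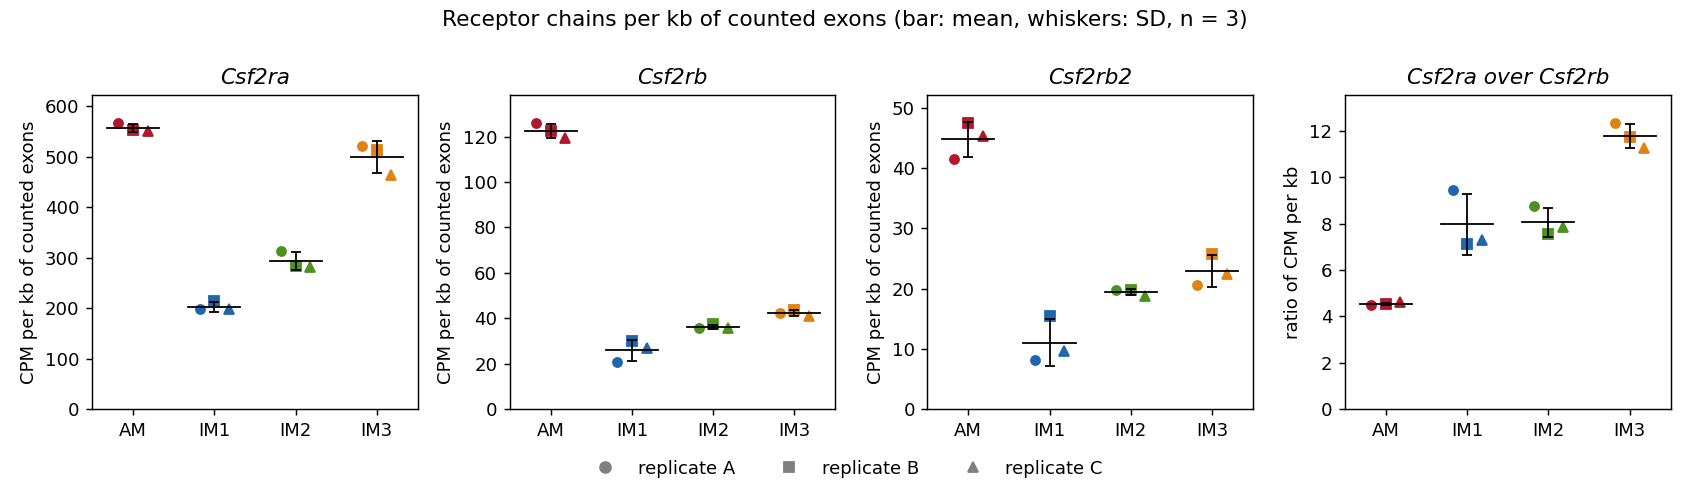
CPM per kilobase of counted exons of Csf2ra, Csf2rb and Csf2rb2 and the ratio of Csf2ra to Csf2rb (vertical axes, starting at 0) in each library of AM, IM1, IM2 and IM3, with bars for the mean and whiskers for the SD (n = 3). Csf2ra climbs from IM1 to IM3 to near its AM level, and both beta chain genes stay below AM in every interstitial library. In IM3 the means of Csf2rb and Csf2rb2 stand at 34.5% and 51.3% of their AM means. The mean ratio is 4.54 in AM and 11.8 in IM3.

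Promoter windows of 300 bases, 250 before and 50 after the transcription start, were taken from RefSeq (GRCm38.p6) for the 8 members that have them, 12 windows in all because Pparg, Stat5a and Stat5b have several starts. Of these, 4 are printed, picked because each holds a motif read by C/EBP, STAT or BHLHE factors or a pair of cores read by PU.1 (Spi1), a myeloid factor. Motifs were searched on both strands as exact letters. The Csf2ra window (chr19:61228369-61228668, minus strand) holds 2 adjacent PU.1 cores, GAGGAA, from positions -14 and -8 relative to the start, printed in capitals. Of 32851 windows of the same length over all genes, 28.3% hold that core, and 4 of the 12 member windows do. The Csf2rb2 window (chr15:78305672-78305971, minus strand) holds the STAT motif TTCNNNGAA from position -15, printed in capitals, which 8.3% of all windows and 1 of the 12 member windows hold.
Csf2ra: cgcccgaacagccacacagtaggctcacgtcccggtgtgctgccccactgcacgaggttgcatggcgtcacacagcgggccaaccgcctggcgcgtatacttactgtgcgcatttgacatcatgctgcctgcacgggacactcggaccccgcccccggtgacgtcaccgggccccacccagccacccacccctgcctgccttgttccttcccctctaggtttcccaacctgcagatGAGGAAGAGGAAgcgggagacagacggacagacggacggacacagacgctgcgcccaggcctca
Csf2rb2: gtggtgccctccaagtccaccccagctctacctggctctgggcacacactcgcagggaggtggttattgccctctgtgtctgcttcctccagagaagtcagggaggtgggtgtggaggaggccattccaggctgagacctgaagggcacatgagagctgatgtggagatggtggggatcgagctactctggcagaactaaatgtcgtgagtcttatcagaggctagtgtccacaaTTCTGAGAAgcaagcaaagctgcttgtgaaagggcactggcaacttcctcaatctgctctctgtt
These are matches of letters and were not tested as binding sites.

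Genes of the ligands and of the IL-5 alpha chain were at or near 0 in the sorted cells, and that of the IL-3 alpha chain was low. Csf2, which encodes GM-CSF, had 1 read in all 12 libraries, and Il3, Il5 and Il5ra had 0, where 0 reads in a library allow up to 0.254 CPM. Il3ra, the IL-3 alpha chain, averaged 7.10 ± 1.52 CPM in AM, 11.9 ± 1.16 in IM1, 13.3 ± 2.41 in IM2 and 7.46 ± 1.27 in IM3, and was lower in AM than in IM1 and IM2 (log2 fold changes -0.75 and -0.91, edgeR adjusted p = 0.00709 and 0.00172).

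STAT5 carries the signal of the beta chain to the nucleus, and its genes Stat5a and Stat5b behaved differently. Stat5a (ENSMUSG00000004043, chr11:100859351-100885169, plus strand) had 101, 92.7 and 87.1 CPM in AM, 27.4, 36.4 and 25.7 in IM1, 33.1, 33.2 and 37.6 in IM2, and 36.1, 29.1 and 39.4 in IM3. All AM libraries were above all interstitial ones, and the interstitial populations overlapped each other. The log2 fold change was 1.65 ± 0.16, 1.43 ± 0.16 and 1.42 ± 0.16 against IM1, IM2 and IM3 (edgeR adjusted p = 2.37e-07, 1.05e-06 and 1.21e-06), and no interstitial pair was called. Stat5b (ENSMUSG00000020919, chr11:100780731-100850724, minus strand) lies 8626 bases from Stat5a. It had 133, 119 and 130 CPM in AM, 102, 134 and 98.1 in IM1, 116, 130 and 129 in IM2, and 121, 100.3 and 118 in IM3. The populations overlapped in every pairing, and no Stat5b comparison was called, with log2 fold changes for AM of 0.19 ± 0.14, 0.03 ± 0.14 and 0.17 ± 0.14. Without IM1 replicate B, which had the highest Stat5b of all libraries, AM minus IM1 was 0.35 ± 0.13 (edgeR adjusted p = 0.0287), and limma-voom called it with all libraries at 0.29 (adjusted p = 0.031).

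Per kilobase, Stat5a stood at 0.571 ± 0.044 of Stat5b in AM, 0.207 ± 0.004 in IM1, 0.216 ± 0.015 in IM2 and 0.239 ± 0.019 in IM3 (SD, n = 3). The counted exons span 7133 bases for Stat5a, whose longest transcript has 3958, and 5539 for Stat5b, whose longest has 5213. The size of the ratio thus depends on the length used, and only its comparison between populations is read here. The lowest AM ratio was 0.521 and the highest interstitial ratio 0.260, so the mixture of the STAT5 genes differed between AM and the others by more than the spread of libraries. The paralogs share 10.8% of the 50-base windows of Stat5a and 11.8% of those of Stat5b.

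**Figure D3:**
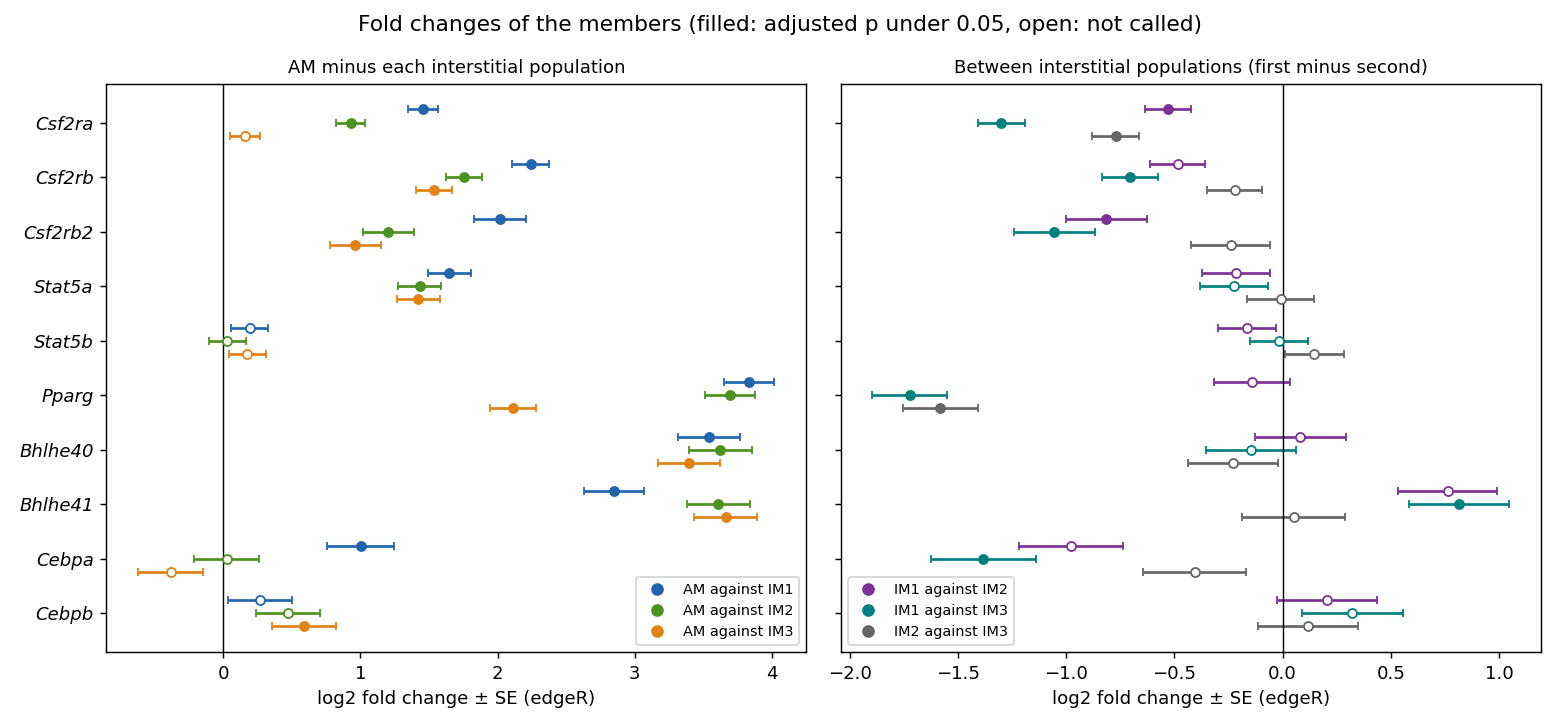
Log2 fold change with its SE (horizontal axes) for each gene, in AM minus IM1, IM2 or IM3 on the left and between interstitial populations, first minus second, on the right, with filled points called at an adjusted p under 0.05 and open points not called. Against IM1 and IM2, Pparg, Bhlhe40 and Bhlhe41 lie farthest right, at 2.85 to 3.83, Stat5b lies near 0, and Csf2ra, Csf2rb, Csf2rb2, Pparg and Cebpa are lower in IM1 than in IM3.

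Other genes of the signalling route were taken from a list of 22, of which 18 were tested. Against IM1, 10 were higher and 6 lower in AM, where 25.7% of all genes tested were called higher and 33.1% lower. Against IM2 the counts were 6 and 5, beside 26.2% and 34.3% of all genes. Against IM3 they were 6 and 4, beside 25% and 32.4%. The list as a whole had no common direction (medians 0.33, 0.07 and -0.15 on the log2 scale). The feedback inhibitors that STAT5 induces split: Socs2 averaged 42.3 ± 6.11 CPM in AM, against 14.5 ± 1.55 in IM1, 14.1 ± 3.37 in IM2 and 25.2 ± 3.38 in IM3, and was called higher in AM each time (log2 fold changes 1.55, 1.59 and 0.75). Cish, another STAT5 target, was 1.16, 0.91 and 0.67 higher on the log2 scale (edgeR adjusted p = 0.000971, 0.00507 and 0.0299). Socs3, best known as a brake on IL-6 type signalling, was the reverse, with 14.7 ± 1.82 CPM in AM against 534 ± 73.8, 780 ± 72.9 and 689 ± 94.6 in IM1, IM2 and IM3. Socs1 and the kinase gene Pim1 were also lower in AM, at 0.851 ± 0.267 and 2.53 ± 0.780 CPM. Jak2 and Jak1 were not called in any of the 3 comparisons. Among other STAT genes, Stat3 was higher in AM in each comparison (log2 fold changes 0.62, 0.64 and 0.70), Stat2 against IM1 alone by this threshold, and Stat6 was not called.

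Pparg (ENSMUSG00000000440, chr6:115360951-115490399, plus strand) encodes the lipid-sensing nuclear receptor PPAR-gamma and had one of the largest differences of the set. It had 207, 205 and 181 CPM in AM, 11.6, 14.2 and 15.6 in IM1, 11.3, 18.1 and 16.4 in IM2, and 40.3, 47.7 and 49.1 in IM3. IM1 and IM2 were low and overlapped, IM3 lay above both in every library, and AM lay far above IM3. The log2 fold change was 3.83 ± 0.18 against IM1, 3.69 ± 0.18 against IM2 and 2.11 ± 0.17 against IM3 (edgeR adjusted p = 5.9e-11, 7.67e-11 and 2.68e-08). IM1 minus IM3 was -1.72 ± 0.17 and IM2 minus IM3 -1.58 ± 0.17 (edgeR adjusted p = 2.56e-06 and 1.16e-05), while IM1 minus IM2 was -0.14 ± 0.17 (0.694). No exon of another counted gene overlaps the counted exons of Pparg, but GENCODE M21 lists the antisense gene Gm44079 at Pparg, the antisense gene Gm45091 at Cebpa and, on the strand opposite Bhlhe41, Gm43909, whose type is still to be experimentally checked, and counts without strand cannot tell their reads apart.

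The annotation gives Pparg 3 starts. The window at the third (chr6:115421816-115422115, plus strand) holds the C/EBP motif TTGCNNAA from positions -215 and -16, printed in capitals, the upstream match as written and the downstream match on the opposite strand. That motif is in 10.8% of all windows and in 1 of the 12 member windows. The PPAR-RXR element known as DR1, a direct repeat of AGGTCA with 1 base between the copies, was in 0 of the 12, and in 0.0396% of all windows. The single hexamer AGGTCA, which the repeat contains, was in 5 of the 12 and in 16.3% of all windows. The deposited gene counts do not show which start was used.
Pparg: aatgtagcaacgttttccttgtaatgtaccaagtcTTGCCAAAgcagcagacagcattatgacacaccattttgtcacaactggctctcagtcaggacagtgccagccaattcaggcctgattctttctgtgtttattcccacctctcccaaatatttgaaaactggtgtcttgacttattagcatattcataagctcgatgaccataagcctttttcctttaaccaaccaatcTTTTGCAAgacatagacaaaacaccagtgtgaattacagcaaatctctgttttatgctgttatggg

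IM3 macrophages held the highest interstitial level of Pparg and Csf2ra. Among dendritic cell markers Flt3 was also highest on average in IM3, where IM1 libraries had 0.961 to 3.97 CPM, IM2 libraries 3.45 to 9.90 CPM and IM3 libraries 7.99 to 24.8 CPM. Dpp4 had 0.592 to 2.96 CPM across IM1 libraries, 3.26 to 4.69 across IM2 and 8.41 to 10.5 across IM3. Zbtb46 had 27.9 to 51.9 CPM across IM1 libraries, 36.8 to 46.0 across IM2 and 8.52 to 13.8 across IM3, Cd209a was lowest in IM3 of the interstitial populations, and Xcr1, Clec9a and Ccr7 reached at most 0.625, 2.85 and 1.28 CPM in any library. The part of such cells in the Pparg and Csf2ra differences was not tested.

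PPAR-gamma works as a pair with a retinoid X receptor. Among 15 listed partners and cofactors, 13 were tested, with 5 higher and 2 lower in AM than in IM1, 4 and 3 against IM2, and 4 and 4 against IM3. Over all genes, 25.7%, 26.2% and 25% were called higher in AM than in IM1, IM2 and IM3, and 33.1%, 34.3% and 32.4% lower. Rxra averaged 334 ± 12.1 CPM in AM, against 79.1 ± 16.4 in IM1, 91.8 ± 13.3 in IM2 and 68.0 ± 6.73 in IM3, with log2 fold changes of 2.08, 1.87 and 2.30. Rxrg took the opposite course: it had 0 reads in AM and averaged 14.04 ± 3.30 CPM in IM1, 9.01 ± 4.35 CPM in IM2 and 0.725 ± 0.509 CPM in IM3. With a floor of 3 reads over the AM libraries, Rxrg was at least 200-fold lower in AM than in IM1, 129-fold than in IM2 and 10.3-fold than in IM3. Nr1h3, the oxysterol receptor LXR-alpha, was higher in AM by 1.78, 2.12 and 1.72 on the log2 scale.

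The target list shows what stood beside Pparg. Of 16 genes of lipid uptake, storage and use listed as PPAR-gamma targets, all 16 were tested. The list was drawn up with earlier results of these data known, and whether its genes depend on PPAR-gamma here was not tested. Of the 16, 14 were higher and 2 lower in AM than in IM1, 14 and 1 against IM2, and 13 and 1 against IM3. Beside these counts, 25.7%, 26.2% and 25% of all genes were called higher in AM, and 33.1%, 34.3% and 32.4% lower. The medians of the targets were 2.09, 2.14 and 2.43 on the log2 scale. The fatty acid carrier gene Fabp4 averaged 183 ± 29.5 CPM in AM, against 1.503 ± 1.17 in IM1, 1.09 ± 0.227 in IM2 and 0.416 ± 0.362 in IM3. The monoglyceride lipase gene Mgll averaged 182 ± 8.99 CPM in AM against 3.41 ± 0.804, 2.00 ± 0.248 and 1.56 ± 0.715, and the cholesterol exporter gene Abcg1 864 ± 120 against 57.6 ± 17.6, 50.8 ± 6.41 and 102 ± 4.95. Cidec, a lipid droplet gene that is also on the alveolar marker list, averaged 269 ± 28.3 CPM in AM and had 2 reads in IM3, a ratio of 5.87e+03 with a 95% counting interval of 1.62e+03 to 4.85e+04.

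The exceptions were Cd36, Hilpda and Ucp2. Cd36, a fatty acid and scavenger receptor often used as a readout of PPAR-gamma, was lower in AM, at 633 ± 72.3 CPM, against 1442 ± 166 in IM1, 1387 ± 166 in IM2 and 800.3 ± 64.5 in IM3 (log2 fold changes -1.19, -1.13 and -0.34, edgeR adjusted p = 1.8e-06, 2.96e-06 and 0.0425). Hilpda was lower in AM than in IM1 and not called elsewhere, and Ucp2 was not called against IM3. The interstitial populations, among which Pparg was highest in IM3, did not follow that order along the list. Of the 16 targets, 3 were lower in IM2 than in IM3 (Lpl, Abcg1 and Ucp2), beside 4.94% of all genes. Another 2 were higher (Cd36 and Cidec), beside 6.49%, and Fabp4 was not called at a log2 fold change of 1.37 ± 0.66.

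**Figure D4:**
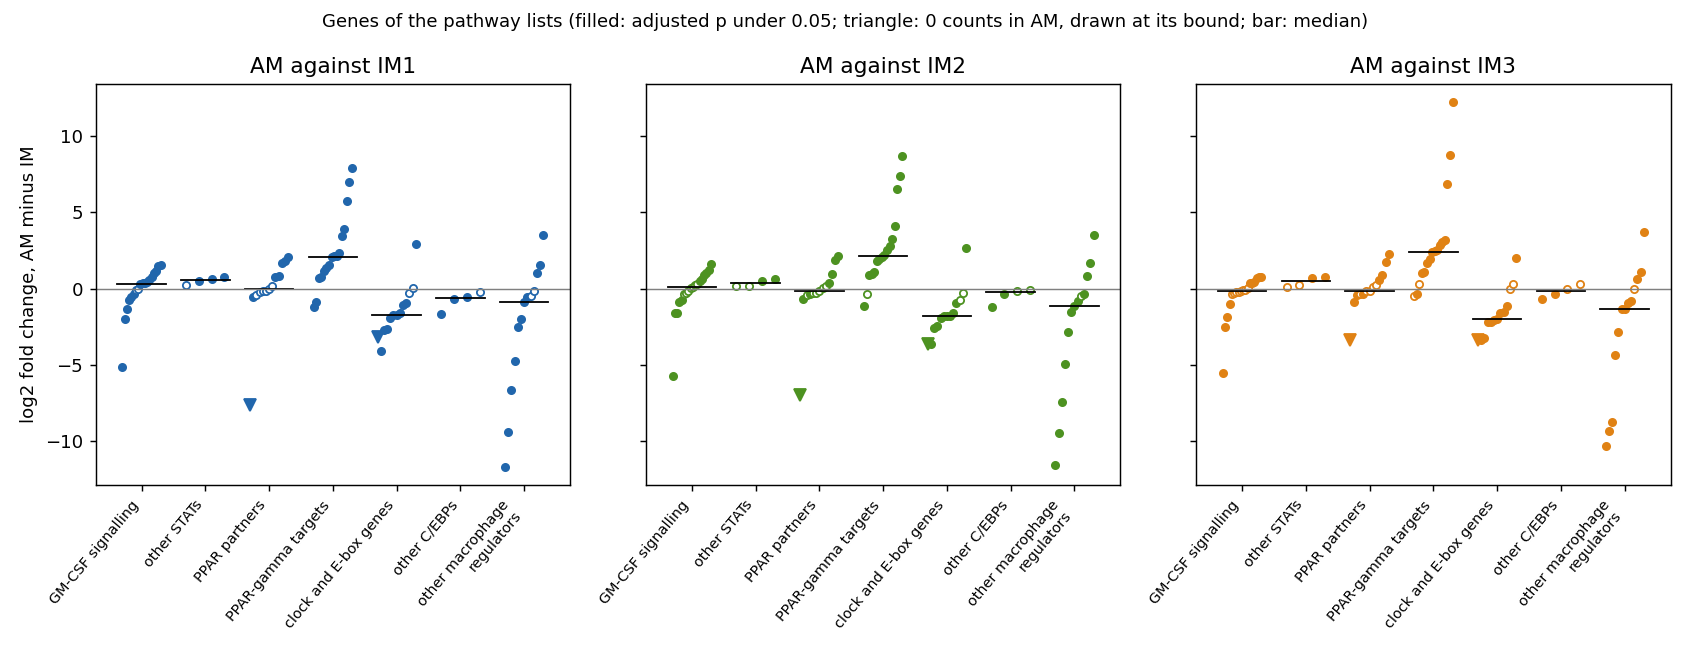
Log2 fold change, AM minus IM1, IM2 or IM3 (vertical axis), of every tested gene in 7 lists, filled where the adjusted p is under 0.05, with a bar at the list median and triangles for Rxrg and Hlf, which had 0 reads in AM and are drawn at their bound. Genes listed as PPAR-gamma targets lie mostly above 0 (medians 2.09, 2.14 and 2.43) and clock and E-box genes mostly below it (-1.71, -1.83 and -1.98).

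Bhlhe40 and Bhlhe41, the E-box repressors, were far higher in AM than in the interstitial cells. Bhlhe40 (ENSMUSG00000030103, chr6:108660629-108666925, plus strand) had 442, 499 and 466 CPM in AM, 33.6, 48.8 and 38.2 in IM1, 24.2, 46.4 and 43.4 in IM2, and 50.5, 47.1 and 36.2 in IM3. AM stood apart and the 3 interstitial populations overlapped. The log2 fold change was 3.54 ± 0.23, 3.62 ± 0.23 and 3.39 ± 0.22 against IM1, IM2 and IM3 (edgeR adjusted p = 1.73e-09, 1.34e-09 and 2.89e-09), and no interstitial pair was called. Exons of the antisense gene 0610040F04Rik cover 3.61% of the counted Bhlhe40 bases, and reads that fell on both genes were not counted.

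Bhlhe41 (ENSMUSG00000030256, chr6:145858243-145865558, minus strand) was lower throughout, with 48.1, 56.2 and 70.5 CPM in AM, 5.94, 8.82 and 9.34 in IM1, 3.91, 4.84 and 5.49 in IM2, and 3.84, 4.25 and 5.68 in IM3. Each AM library was above every interstitial one, and IM1 lay above IM2 and IM3 without overlap. It was 2.85 ± 0.22 higher in AM than in IM1, 3.61 ± 0.23 than in IM2 and 3.66 ± 0.23 than in IM3 on the log2 scale (edgeR adjusted p = 1.66e-08, 1.6e-09 and 1.62e-09). IM1 minus IM3 was 0.81 ± 0.23 (edgeR adjusted p = 0.0173), the only interstitial call in which a member was higher in IM1. It rests on 58 to 144 reads a library and was lost in a fit of those populations alone (0.068) and without IM1 replicate C (0.074), IM3 replicate A (0.0828) or IM3 replicate B (0.0661). IM1 minus IM2 was 0.76 ± 0.23 with an adjusted p of 0.119, which was 0.024 with the replicate block and 0.093 with that block on the interstitial libraries alone. Per kilobase, Bhlhe40 stood at 15.8 ± 2.70 times Bhlhe41 in AM, 9.75 ± 1.67 in IM1, 15.1 ± 3.24 in IM2 and 19.5 ± 6.65 in IM3.

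The Bhlhe41 promoter window (chr6:145865371-145865670, minus strand) holds the E-box CACGTG, the element that BHLHE40 and BHLHE41 bind, from position -153, printed in capitals. It is in 7.15% of all windows and in 1 of the 12 member windows.
Bhlhe41: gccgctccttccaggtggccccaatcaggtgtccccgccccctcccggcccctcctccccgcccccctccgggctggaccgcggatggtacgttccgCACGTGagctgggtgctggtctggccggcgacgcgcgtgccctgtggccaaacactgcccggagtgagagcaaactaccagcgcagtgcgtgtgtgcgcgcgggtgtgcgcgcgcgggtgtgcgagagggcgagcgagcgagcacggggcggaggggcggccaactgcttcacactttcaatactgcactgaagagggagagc

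Genes of the circadian clock, many of which carry E-boxes that these repressors share with CLOCK and BMAL1, were mostly lower in AM. Of 14 listed, 13 were tested, and 10 were lower and 1 higher in AM in each comparison. Over all genes, 33.1%, 34.3% and 32.4% were lower in AM than in IM1, IM2 and IM3, and 25.7%, 26.2% and 25% higher. Dbp, an output gene of the clock, averaged 0.665 ± 0.315 CPM in AM, against 11.5 ± 1.49 in IM1, 8.43 ± 1.57 in IM2 and 7.02 ± 1.11 in IM3. Hlf had 0 reads in AM and was at least 9.04-fold lower in AM than in IM1, 12.6-fold than in IM2 and 10.3-fold than in IM3, with the same floor. Ciart averaged 0.314 ± 0.333 CPM in AM against 2.05 ± 0.422, 1.74 ± 0.946 and 2.97 ± 0.120. The gene that was higher in AM was Cry1, a clock repressor, at 26.7 ± 1.42 CPM against 3.45 ± 1.06, 4.14 ± 1.74 and 6.66 ± 0.769 (log2 fold changes 2.94, 2.68 and 2.00). Clock was not called in any of the 3, Per2 not against IM1 and IM2, and Arntl, which encodes BMAL1, not against IM3. The labels used here give no hour of sampling.

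The C/EBP genes did not follow the other members. Cebpa (ENSMUSG00000034957, chr7:35119293-35121928, plus strand) had 124, 114 and 108 CPM in AM, 33.99, 88.7 and 50.2 in IM1, 121, 108 and 112 in IM2, and 127, 165 and 159 in IM3. IM1 was low and uneven, AM and IM2 overlapped, and all IM3 libraries were above all AM libraries. AM minus IM1 was 1.00 ± 0.24 (edgeR adjusted p = 0.00215), AM minus IM2 0.02 ± 0.24 (0.939) and AM minus IM3 -0.38 ± 0.24 (0.183). IM1 minus IM3 was -1.38 ± 0.24 (edgeR adjusted p = 0.000593), and IM1 minus IM2 was -0.98 ± 0.24 with an adjusted p of 0.0552, which was 0.0219 with the replicate block and 0.0268 with that block on the interstitial libraries alone. IM1 replicate B, at 88.7 CPM, was the farthest of its population from the mean. Without it AM minus IM1 was 1.45 ± 0.17 (2.2e-06), AM minus IM3 -0.38 ± 0.14 (0.031), and IM1 minus IM2 -1.43 ± 0.17 (0.000141), all from edgeR. With that library kept, AM minus IM3 was also called without IM1 replicate A (0.0467), with no filter on low counts (0.0437), in a fit of those populations alone (0.00285) and by limma-voom (0.0159). IM1 minus IM2 was also called with no filter (2.35e-07), by DESeq2 (0.00743) and by limma-voom (0.00171).

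Cebpb (ENSMUSG00000056501, chr2:167688915-167690418, plus strand) had 131, 124 and 118 CPM in AM, 127, 95.9 and 86.8 in IM1, 125, 71.6 and 71.7 in IM2, and 109, 77.7 and 60.6 in IM3. In each interstitial population replicate A was the highest and reached or came near the AM values. The log2 fold change was 0.27 ± 0.23 against IM1, 0.47 ± 0.23 against IM2 and 0.59 ± 0.23 against IM3 (edgeR adjusted p = 0.339, 0.092 and 0.0409). Against IM2 the difference was 0.78 without IM2 replicate A (edgeR adjusted p = 0.00667), and it was also called with no filter (0.00928), in a fit of those populations alone (0.0491) and by limma-voom (0.00504), which called AM against IM1 too (0.0375). The call against IM3 was lost under upper-quartile scaling (0.0532), with a minimum count of 50 (0.0588) and without any of the 3 AM libraries, IM3 replicate B or IM3 replicate C (0.0599 to 0.171). Exons of Tmem189 on the opposite strand cover 20.7% of the counted Cebpb bases, and reads that fell on both genes were not counted. Per kilobase, Cebpa stood at 0.531 ± 0.011 of Cebpb in AM, 0.337 ± 0.188 in IM1, 0.767 ± 0.186 in IM2 and 1.13 ± 0.42 in IM3.

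Of the 5 other C/EBP genes 4 were tested, with 0 higher in AM and 3, 2 and 2 lower against IM1, IM2 and IM3. Beside them, 25.7%, 26.2% and 25% of all genes were higher in AM and 33.1%, 34.3% and 32.4% lower. Cebpg was lower in AM each time, at 140 ± 7.31 CPM against 203 ± 20.2, 182 ± 15.2 and 222 ± 17.5. Cebpd was lower against IM1 and IM2 (log2 fold changes -1.66 and -1.21, edgeR adjusted p = 0.000143 and 0.00187) and not called against IM3 (0.29, 0.412). Ddit3 was lower against IM1 alone by this threshold, and Cebpz against IM3.

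Other transcription factors of macrophage identity were mostly lower in AM, unlike Pparg and the Bhlhe genes. Of 14 listed, 13 were tested, with 3 higher and 8 lower in AM than in IM1, and 3 and 9 against IM2 and against IM3. The shares over all genes were 25.7%, 26.2% and 25% higher in AM than in IM1, IM2 and IM3, and 33.1%, 34.3% and 32.4% lower. Maf, whose product restrains macrophage self-renewal, had 3 reads in AM and averaged 273 ± 48.8 CPM in IM1, 248 ± 44.7 in IM2 and 106 ± 3.54 in IM3. The ratio of IM3 to AM for Maf was 1.48e+03, with a 95% counting interval of 506 to 7.18e+03. Klf2 averaged 13.8 ± 1.06 CPM in AM against 372 ± 67.2, 428 ± 93.6 and 283 ± 51.5, and Runx3 0.123 ± 0.213 against 13.04 ± 3.19, 22.9 ± 3.84 and 56.5 ± 9.40. The 3 that were higher in AM were Tcf7l2, Id2 and Egr2.

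Between interstitial populations the members differed mainly between IM1 and IM3. For IM1 against IM2, 0 of the 10 were higher in IM1, beside 0.49% of all genes, and 2 were higher in IM2 (Csf2ra and Csf2rb2), beside 1.22%. In either direction that fit called 1.71% of all genes. With the replicate letter as a block, Csf2rb, Cebpa and Bhlhe41 were added, so 5 of the 10 were called, beside 392 of 14095 genes in that fit. With the block on the 9 interstitial libraries alone, Csf2ra, Csf2rb2 and Cebpa were called, 3 of the 10, beside 324 of 13662 genes. Of 91 listed pathway genes, 81 were in that test and 0 were called between IM1 and IM2 by edgeR, with 18 at an unadjusted p under 0.05. DESeq2 called 3, limma-voom 5 and the fit with the replicate block 1, and leaving out IM1 replicate B gave 13.

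For IM1 against IM3, 5 members were higher in IM3 (Csf2ra, Csf2rb, Csf2rb2, Pparg and Cebpa), beside 11.7% of all genes, and 1 was higher in IM1 (Bhlhe41), beside 12.7%. For IM2 against IM3, 2 were higher in IM3 (Csf2ra and Pparg), beside 4.94% of all genes, and 0 in IM2, beside 6.49%. The median log2 fold changes of the members were -0.19, -0.47 and -0.23 for IM1 minus IM2, IM1 minus IM3 and IM2 minus IM3, against 0.00, 0.02 and 0.00 over all genes. Over the pathway lists, 28 genes were called between IM1 and IM3, beside 24.4% of all genes in either direction, and 18 between IM2 and IM3, beside 11.4%. Without IM3 replicate A, 18 were called between IM1 and IM3.

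The members were not restricted to AM in the way that defining alveolar markers were. Those markers were listed because they define AM, and with earlier results of these data known. Their low interstitial shares follow in part from that choice and serve only as a scale. As a share of its AM mean, a member's interstitial mean ran from 6.98% (Pparg) to 87.5% (Stat5b) in IM1, from 7.72% (Pparg) to 98.4% (Cebpa) in IM2 and from 7.88% (Bhlhe41) to 130% (Cebpa) in IM3. The medians over the 10 members were 28.3%, 40.2% and 44.3%. For the 10 alveolar markers the medians were 0.405%, 0.336% and 0.189%, with a highest value of 49.9% for Itgax, the CD11c gene that was used in the sort, in IM3. Each of the other 9 markers, among them Siglecf, on which both sorts also gated, stood at 2.17% or less of its AM mean in every interstitial population, where the lowest share of a member was 6.98%.

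**Figure D5:**
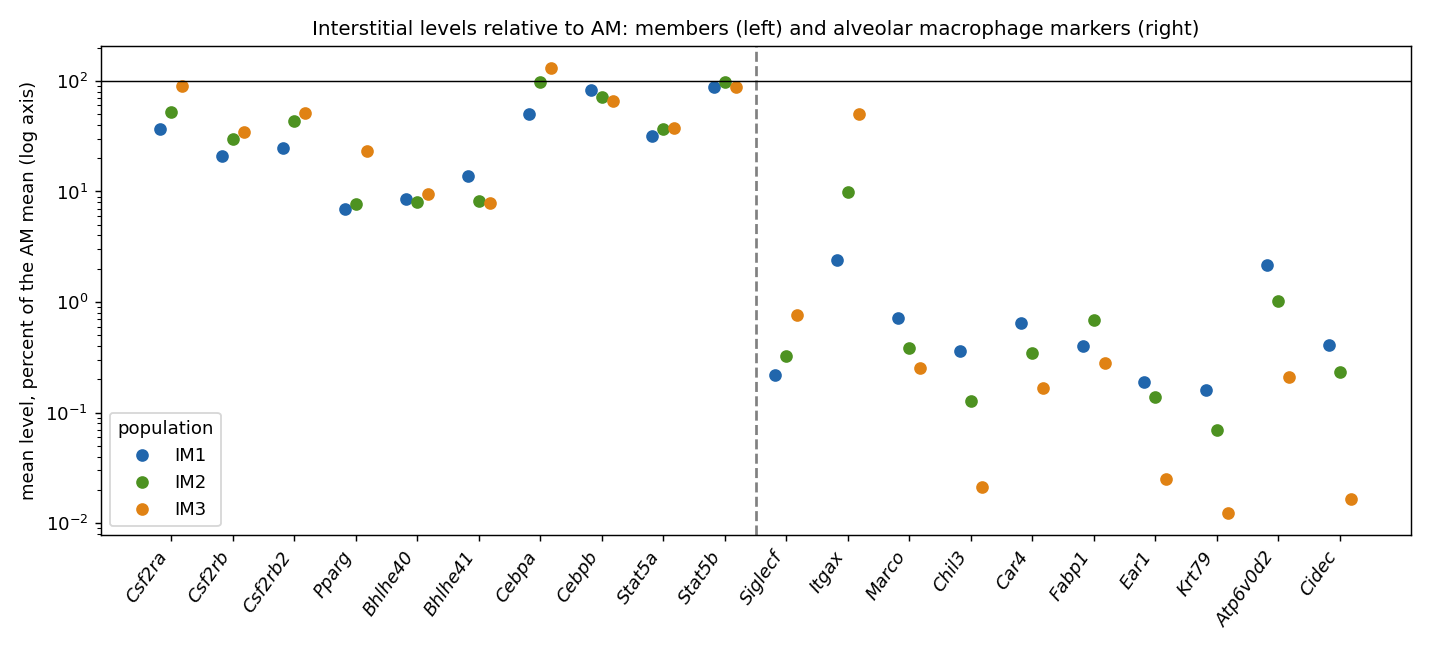
Mean level in IM1, IM2 and IM3 as a percentage of the AM mean (vertical log axis, with a line at 100) for the 10 members on the left and 10 alveolar macrophage markers on the right. The members lie between 6.98% and 130%, and all markers except Itgax, up to 49.9%, lie at or below 2.17%.

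To place each member, the genes with the most similar profile over the 12 libraries were found as those with the smallest root mean square (RMS) difference of log2 CPM after centring each gene on its own mean. The profile nearest to Csf2ra was that of Fam107b (RMS 0.13). For Csf2rb it was Gm15448 (0.14), for Csf2rb2 Shtn1 (0.13), for Stat5a Hadha (0.12), a subunit of mitochondrial fatty acid oxidation, and for Stat5b Mon1b (0.08). Pparg was nearest to Cd9 (0.18), a tetraspanin gene with 4837 CPM in AM, 383 in IM1, 348 in IM2 and 953.0 in IM3. Bhlhe40 was nearest to Tnfrsf23 (0.25) and Bhlhe41 to Car5b (0.28), Cebpa to Tbkbp1 (0.15) and Cebpb to Ndufb7 (0.15). Among the members themselves, the closest profiles were those of Csf2rb and Stat5a (0.28) and of Csf2rb and Csf2rb2 (0.28). These distances describe 12 libraries and carry no test.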

How the data were processed

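Per the file headers, the deposited values are raw read counts per gene and run, made with featureCounts v1.5.0-p1 without strand on Ensembl 78 models; multimapping reads and those on more than 1 gene were left out. The submitters' processing notes name the mm10 build and the aligner STAR 2.5.1b. The 38 runs were summed to 12 libraries, and the deposited table of counts per library held the same values. Symbols and coordinates came from GENCODE M21.

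Counts were tested with edgeR 4.0.16 under R 4.3.3 (TMM scaling, filterByExpr with a minimum count of 10 by population, robust quasi-likelihood F test) on all 12 libraries in 1 fit with population as the term, with Benjamini-Hochberg adjustment over 14095 genes. Levels are TMM-scaled CPM, and marker sums are CPM without TMM factors. A value of 0 allows up to 3 counts in a library, 0.19 to 0.254 CPM, which covers counting error only, since amplified reads carry no molecular identifiers. As the letters may not be separate animals, p-values measure spread between libraries, which may be technical. The procedure was tested on simulated data in which few genes changed, all upward in AM, with less spread than in these libraries. That test therefore does not give the error rate of the comparisons here. DESeq2 1.42.0, limma 3.58.1, other scalings and filters, a replicate block and leaving out each library were the alternatives.

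Deviations from the population means correlated between libraries of the same letter at 0.17 to 0.29 for IM1 with IM2 and 0.14 to 0.19 for IM2 with IM3. The letters may thus pair those populations, a reading that comes from the data and not from the labels. For the other pairs of populations the correlations ran from -0.12 to 0.17. Pairing of IM1 with IM2 and of IM2 with IM3 would also pair IM1 with IM3. There the same-letter values were 0.07, -0.12 and 0.17 for A, B and C, and different letters reached 0.16. Whether the letters pair any populations was therefore not settled, and the block served as an alternative only.

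The members, gene lists and marker lists were chosen with earlier results of these data known. Genes named are the members; in each list up to 4 genes with the largest mean change among those called in the same direction against IM1, IM2 and IM3; list genes that fall outside a stated count; and the genes most like each member, of which the nearest are given. Il3ra, Cish and the dendritic and epithelial markers named singly were picked after their values were seen. Some genes that this rule names are not reported here.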

Additional observations from a re-analysis of the deposited data

How the results depend on the processing

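Over every alternative tried, 8 to 10 members were called for AM against IM1, 7 to 8 against IM2 and 6 to 8 against IM3, and no called difference of a member changed sign. Between IM1 and IM2 the counts moved. Members called there were 2 as reported, 4 with DESeq2, with no filter on low counts and with limma-voom, 0 in a fit of those populations alone, 5 with the replicate block, and 0 to 4 when libraries were left out in turn (4 without IM1 replicate B). Pathway genes called there were 0 as reported, 3 with DESeq2, 5 with no filter and with limma-voom, 1 with the replicate block, 2 with the block on the interstitial libraries alone (an alternative chosen after seeing the data), and 0 to 13 over the left-out libraries (13 without IM1 replicate B). Between IM1 and IM3 the pathway count of 28 ran from 18, without IM3 replicate A, to 36, without IM1 replicate B. Over all genes, IM1 against IM2 gave 241 calls as reported, 565 with DESeq2, 941 with no filter, 920 with limma-voom, 71 in those populations alone and 392 with the replicate block. In AM against IM2, where same-letter correlations ran from -0.085 to 0.035, the block called Cebpb (edgeR adjusted p = 0.00538). The block changed no other call of a member against AM. The cause of these movements was not tested. Over all comparisons and alternatives, with each left-out library counted as a fit, members lost a call 27 times (Csf2rb2 12, Cebpb 7, Csf2ra 4 and Bhlhe41 4) and gained one 27 times, and 12 mean levels moved by more than 1 SD, 11 of them without TMM factors.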
